A study of Drosophila melanogaster with 2 samples.

Results

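Muscle structure genes are described here as 10 named genes of the sarcomere, Mhc, Mlc1, Mlc2, Tm1, Tm2, up, wupA, sls, bt and Zasp52, out of 13945 protein-coding genes on 6 chromosome arms of the Drosophila melanogaster assembly dm6. They form a list of gene names that was proposed with peaks of these data in view. Each locus was taken as the annotated gene with 5 kb on each side, and every summit (the position of highest signal within a called region) in it was listed. The data are chromatin immunoprecipitation and sequencing (ChIP-seq) of HmgZ, a small chromatin protein with a DNA-binding high mobility group box. The embryos were whole, of both sexes and aged 4 to 24 h, and came from a transgenic line that stably expresses HmgZ with green fluorescent protein fused to its C-terminus. There was 1 group of 2 biological replicates, numbered 1 and 3, both called against 1 shared control alignment, and no second condition, so no test between groups could be made. Both samples' free text names them input controls, while their antibody, assay name and peak lists are those of an HmgZ ChIP, as which they are treated here.

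The sarcomere is the contractile unit of muscle, in which thick filaments of myosin slide along thin filaments of actin. Myosin heavy chain carries the motor, and its light chains stabilise and regulate the neck of the motor. Tropomyosin and the troponin complex on the thin filament gate contraction by calcium, while giant elastic proteins and Z-disc scaffolds hold the filaments in register. Several of the fly genes make different proteins for different muscles through alternative promoters and splicing.

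Of 6844 peaks that passed the authors' irreproducible discovery rate threshold, here called thresholded peaks, 15 had their summit in one of the 10 loci, and of the 30000 regions of the list called on both replicates pooled, 95 did. All 15 thresholded peaks were also among the pooled regions, and all 15 had a region with its summit within 100 bp in both replicates, as did 94.1% of all thresholded peaks. Among the 95 pooled regions, 48 (50.5%) had such a match in both replicates, against 51.7% of all pooled regions, 38 had it in 1 replicate and 9 in neither. Signal is given throughout as a multiple of the median signal of its own list. The depth of the libraries is unknown, because the lists hold no read counts. An embryo of this age is a mixture of tissues, so peaks in a small share of cells and weak binding in all cells cannot be told apart. The lists hold no readout of cell type with which the share of muscle could be checked.

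The thresholded summits lay mostly in the loci of Tm1, a tropomyosin gene, and Zasp52, which encodes a scaffold of the Z-disc. Each locus held 6 thresholded summits, 12 of the 15 together. The other 8 loci held 3 in all: 1 each at Mhc, Tm2 and sls, and none at Mlc1, Mlc2, up, wupA and bt. Of the 12, 4 lay in the body of Tm1 and 2 in that of Zasp52, and several were at starts of, or inside, other genes. A thresholded summit lay within 250 bp of a transcription start site (TSS) of 2 of the 10 genes, the same Tm1 and Zasp52, against 32.8% of all protein-coding genes. With the gene body and 5 kb on each side, 5 of the 10 genes had a thresholded summit, against 65.6% of all genes, and in the gene body alone 2 of 10 had one, against 17.5%. With 10 genes and no test, these shares describe the list only. Tm1 and Zasp52 were set apart from the rest with their peaks already known, so their contrast with the other 8 is likewise a description.

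**Figure D1:**
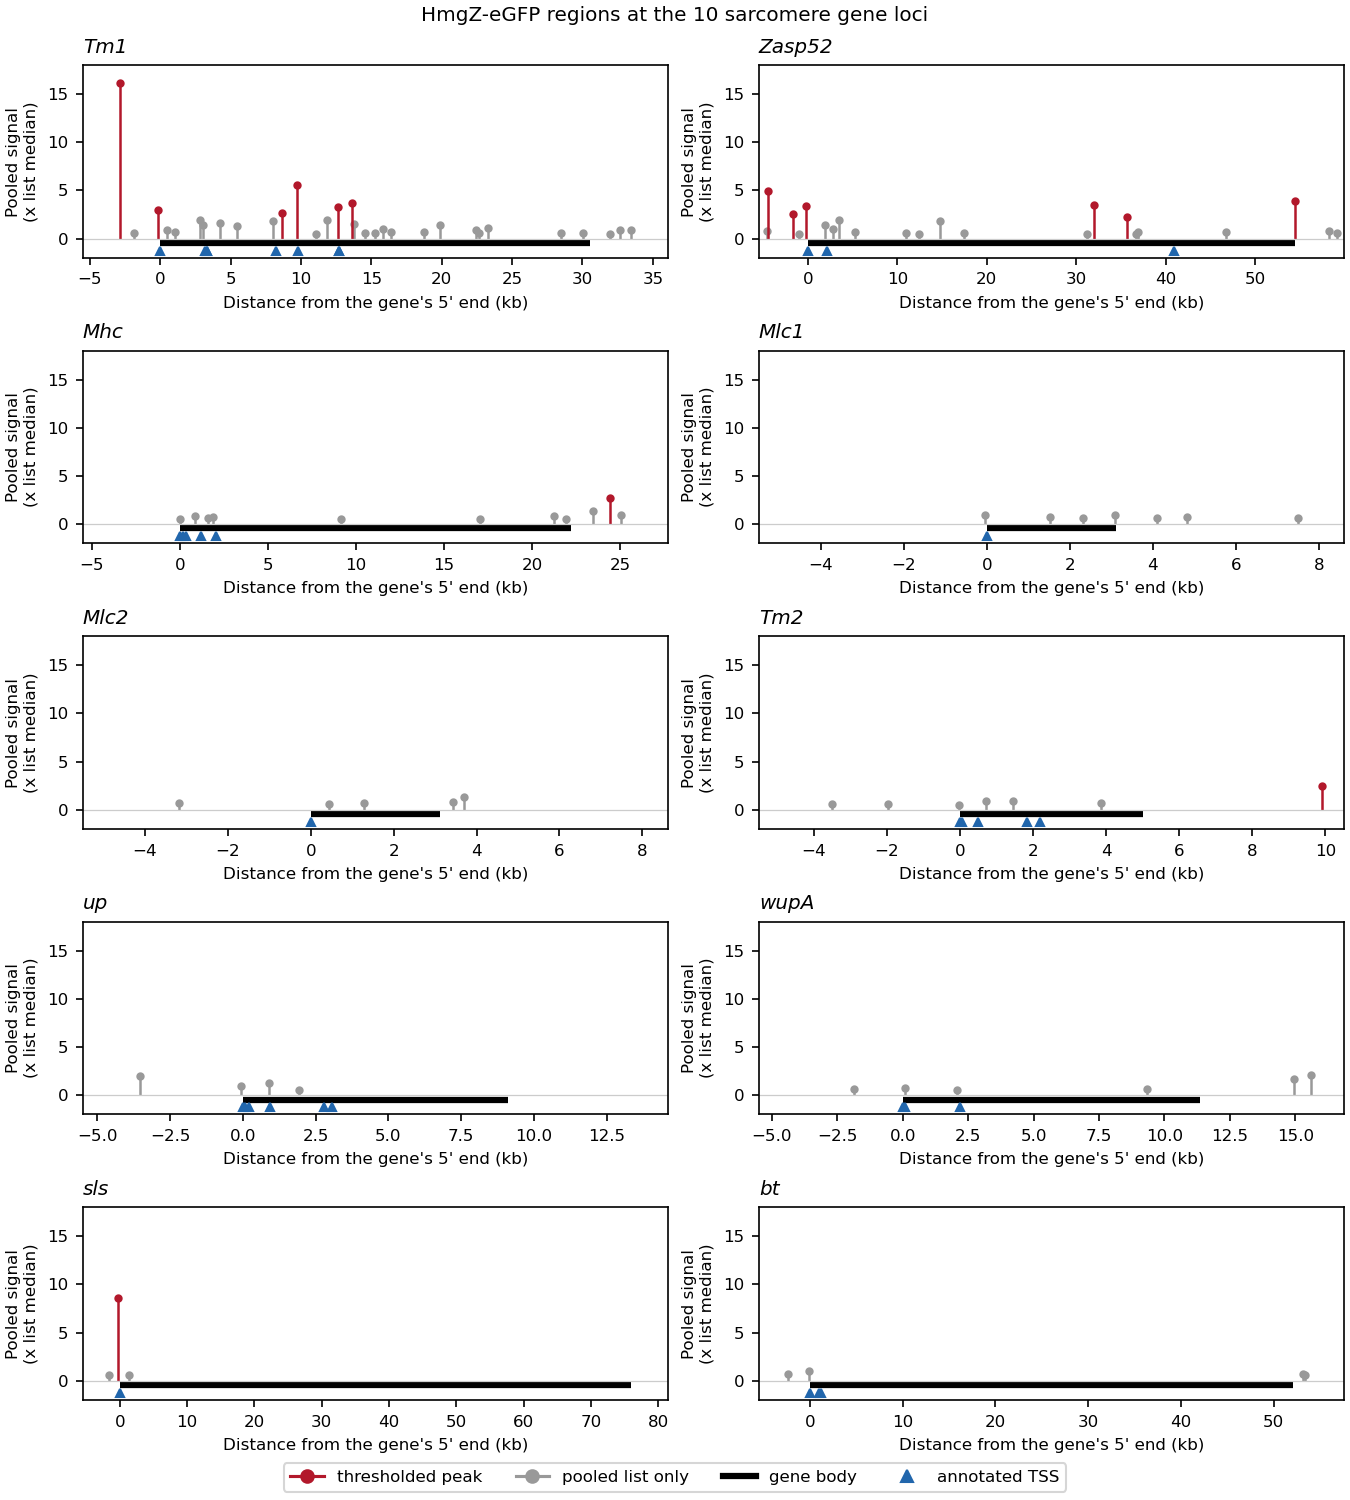
Pooled regions at each of the 10 loci, by distance of the summit from the gene's 5′ end in kb (horizontal) and signal as a multiple of the pooled list's median (vertical). Red marks the 15 thresholded peaks, grey the regions of the pooled list alone, the black bar the gene body and triangles the annotated TSSs; Tm1 and Zasp52 each hold 6 red marks, and the bodies of sls and bt are nearly bare.

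Tm1 and Zasp52 are long genes with many transcripts. Tm1 is 30.6 kb long with 8 distinct TSS positions and 18 transcripts, and Zasp52 is 54.4 kb long with 3 and 22. Transcript number does not set them apart: of the other 8, Mhc has 21, up 18 and the rest 1 to 13. The other 8 genes have a median length of 10.2 kb and a median of 3 TSS positions, and all protein-coding genes a median of 2.17 kb and 1. Per 10 kb of locus, Tm1 held 1.48 thresholded summits, Zasp52 0.931, the other 8 together 0.115, and all protein-coding loci together 0.879. All 10 members together held 0.409 per 10 kb. The 1237 protein-coding genes at least as long as the median member (16778 bp) together held 0.442. Only 5 of the 10 members are that long, so these values come from unlike sets. Of those 5, Tm1 and Zasp52 were above 0.442, and Mhc (0.311), sls (0.116) and bt (0) below it. Among the 5 members of that length, 2 had a thresholded summit at a TSS, against 38.7% of those 1237 genes. Of the same 5 genes 4 had one in the body with 5 kb, against 75.2% of those long genes. Among the other long members, Mhc (22.2 kb) and sls (75.9 kb) held 1 thresholded summit each in the locus and bt (52.1 kb) held 0. The part of length in the contrast was not tested.

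Promoters were then examined one start at a time. The 10 genes have 36 distinct TSS positions, of which 5 had a thresholded summit within 250 bp, against 28.4% of all protein-coding TSS positions: 4 of the 8 in Tm1, 1 of the 3 in Zasp52 and 0 of the 25 in the other 8 genes. Weaker regions were common. A summit of the pooled list lay within 250 bp of 22 of the 36 positions, against 51.1% of all, and of a TSS of 8 of the 10 genes, against 54.6% of all genes, the exceptions being Mlc2 and sls. The strongest pooled region at a TSS had a median of 0.968 times the list median over these 8 members, and of 2.53 over the 7607 protein-coding genes with one. Tm1 reached 5.52, higher than 87.5% of those genes, and Zasp52 3.39, higher than 66.0%. In the other 6 genes it was 0.720 to 1.26, which placed them at percentiles 6.89 to 20.03.

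**Figure D2:**
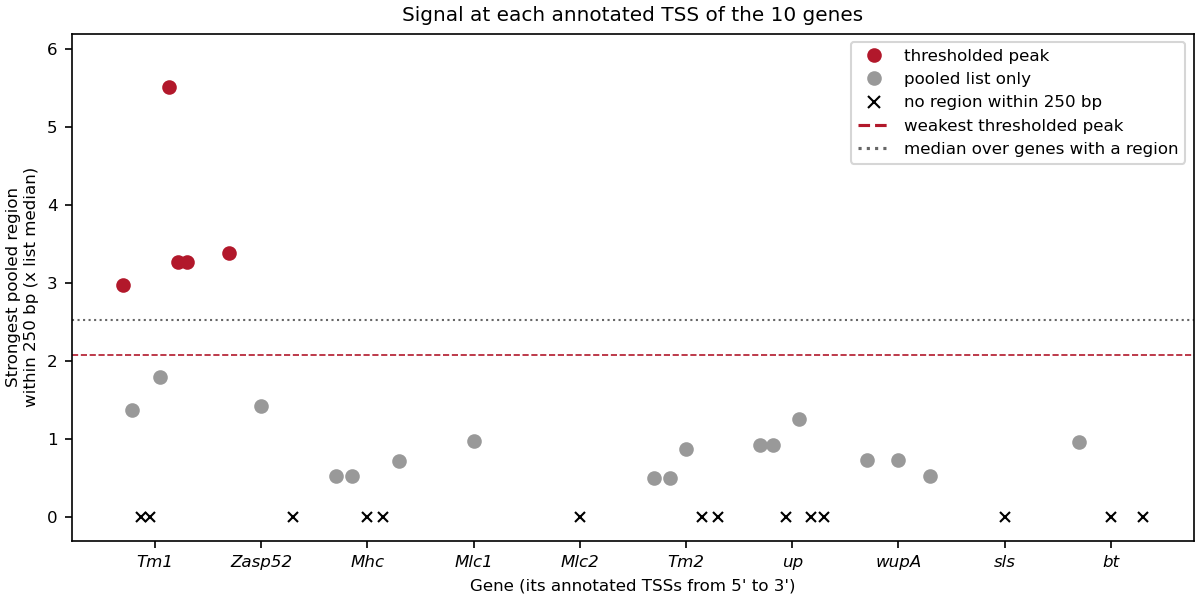
Strongest pooled region within 250 bp of each of the 36 annotated TSS positions, as a multiple of the list median, by gene, with the TSSs of a gene from 5′ to 3′. Red points are thresholded peaks, grey points pooled regions alone and crosses TSSs without a region; the dashed line is the weakest thresholded peak in the genome (2.09) and the dotted line the median over genes with a region (2.53). The strong sls peak is absent here because its summit lies 274 bp from the TSS.

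The sequences of 6 of these starts are shown, as examples of each kind of start found: a start with a thresholded peak alone (Tm1-RC and RI), a start shared with a nested gene (Tm1-RA), the strongest peak just outside the promoter window (sls), and starts with weak regions or none (Mhc-RQ group, Mlc1-RA group, up-RS). They are from the RefSeq copy of the dm6 assembly, written 5′ to 3′ on the strand of the gene. Capitals mark matches, on either strand, to TATCGATA of the DNA replication-related element (DRE), CGATA of the insulator protein BEAF-32, GGTCACACT of the core promoter factor M1BP, GAGAG of GAGA factor, TATAAA of a core promoter's TATA box, GATAA of the GATA factor family, and the MEF2 consensus by name. Distances count the first transcribed base as 0, with negative numbers before it. The sls stretch is chr3L:2115592-2115891 (minus strand, 280 bases before to 20 from the TSS), the Tm1-RC stretch chr3R:15287892-15288040 (plus), the Tm1-RA stretch chr3R:15290824-15290972 (plus), the Mhc stretch chr2L:16767577-16767805 (plus), the Mlc1 stretch chr3R:27660149-27660297 (minus) and the up stretch chrX:13601626-13601804 (minus).
Tm1-RC and RI: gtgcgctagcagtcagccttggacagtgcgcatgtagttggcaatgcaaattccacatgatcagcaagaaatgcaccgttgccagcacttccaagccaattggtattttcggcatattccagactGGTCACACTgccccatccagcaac
Tm1-RA: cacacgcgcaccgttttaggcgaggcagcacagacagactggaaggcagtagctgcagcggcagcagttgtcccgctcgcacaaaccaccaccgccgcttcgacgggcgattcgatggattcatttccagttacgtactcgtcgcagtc
sls, all 13 transcripts: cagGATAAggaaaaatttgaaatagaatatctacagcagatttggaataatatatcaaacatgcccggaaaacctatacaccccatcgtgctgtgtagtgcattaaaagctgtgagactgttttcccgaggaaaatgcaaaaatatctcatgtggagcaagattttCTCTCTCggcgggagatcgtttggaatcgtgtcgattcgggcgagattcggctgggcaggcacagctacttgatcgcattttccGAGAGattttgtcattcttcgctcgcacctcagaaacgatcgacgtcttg
Mhc-RQ, RS, RU and RV: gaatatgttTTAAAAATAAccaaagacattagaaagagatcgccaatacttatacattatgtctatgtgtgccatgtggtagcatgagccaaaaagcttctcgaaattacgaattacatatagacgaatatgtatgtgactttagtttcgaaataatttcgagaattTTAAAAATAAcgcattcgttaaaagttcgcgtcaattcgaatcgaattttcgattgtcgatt
Mlc1-RA, RB and RD: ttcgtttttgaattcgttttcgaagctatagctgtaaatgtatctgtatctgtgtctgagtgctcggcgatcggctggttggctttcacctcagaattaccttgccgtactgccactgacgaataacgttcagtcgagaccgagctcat
up-RS: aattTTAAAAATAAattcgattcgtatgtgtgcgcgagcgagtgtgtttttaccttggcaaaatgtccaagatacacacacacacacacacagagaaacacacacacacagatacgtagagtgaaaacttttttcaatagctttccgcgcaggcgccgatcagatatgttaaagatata

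Tm1 (FBgn0003721, 3R 15278220 to 15308779, plus strand) and Tm2 (FBgn0004117, 3R 15310193 to 15315197, plus strand) are neighbours that both encode tropomyosin, the coiled-coil protein along the thin filament. Tm1 also has transcripts made in non-muscle cells. The strongest thresholded peak in any of the 10 loci lay 2870 bp before the first Tm1 start (15275205 to 15275575). It had a signal of 12.3 in replicate 1 and 18.9 in replicate 3 (15.6 ± 4.66, SD, n = 2 here and below). That summit is 109 bp before the TSS of Cp190, which encodes an insulator protein, and within 250 bp of a TSS of CG4338, so it counts as the promoter of these genes and not of Tm1. It ranked 94 among the 30000 pooled regions, and the next of the 10 loci, at sls, ranked 393.

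Inside Tm1 the strongest peak (15287742 to 15288145) was at an internal start, 68 bp before the TSS of transcripts RC and RI, which encode a protein of 441 residues. Its signal was 4.21 in replicate 1 and 6.00 in replicate 3 (5.11 ± 1.27), and no other gene starts within 500 bp. The printed sequence of that start holds GGTCACACT at offsets 5 to 13 from the TSS, the letters bound by M1BP, a zinc finger protein of core promoters. This was the only member TSS with that match.

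A second internal start gave a weaker peak (15290682 to 15291085), 60 bp before the TSS of RA and 62 bp before that of RQ and RR, which encode short tropomyosins of 252 and 250 residues. The signal was 1.75 in replicate 1 and 2.74 in replicate 3 (2.25 ± 0.701). CG45218, a gene nested in Tm1 on the other strand, starts close by, so the summit lay 85 bp from its TSS too and cannot be assigned to either gene. None of the capitalised motifs was found in the RA stretch shown above. An E-box (CANNTG, not capitalised in any stretch) begins at offset -56, and GAGAG matches at offsets 42 to 48 lie past the printed end. The first Tm1 start, that of RT, had a peak 127 bp before it (15277891 to 15278294) at 2.29 in replicate 1 and 3.55 in replicate 3 (2.92 ± 0.894). That summit was 16 bp inside MRG15, which encodes a chromodomain protein, and it also fell in l(3)neo43, which overlaps the start of Tm1.

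The remaining Tm1 peaks were in introns. One (15286648 to 15287051), 431 bp after the start of RH, had 2.92 in replicate 1 and 1.67 in replicate 3 (2.29 ± 0.884), and the other (15291613 to 15292016), 869 bp after the start of RQ and RR, had 3.85 and 3.20 (3.53 ± 0.459). Both were higher in replicate 1, and the 4 promoter peaks of the locus were higher in replicate 3. In Zasp52 the order was the other way, with both intronic peaks higher in replicate 3 and the promoter peak higher in replicate 1. At the 4 Tm1 starts without a thresholded peak, the strongest pooled region within 250 bp was 1.38 at RG and 1.81 at RH, and the starts of the RF and RE groups had none, the nearest summit being 257 and 275 bp away. Of these starts, RH encodes a protein of 678 residues and RG one of 285. The RE group encodes proteins of 284 to 711 residues and the RF group of 161 to 518. The whole locus held 31 pooled summits, or 7.64 per 10 kb, more than in 92.7% of protein-coding loci, and their range ran from 0.493 to 16.1.

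Tm2, the next gene along, had lower values. Its 5 starts all encode proteins of 284 residues. The strongest pooled region was 0.502 at RA and RC and 0.880 at RE, and the starts of RB with RF and of RG had none within 250 bp. The region at RA (0.560 in replicate 1) had no counterpart in replicate 3. The 1 thresholded peak of the Tm2 locus (15319893 to 15320296) lay in the 3′ flank, 26 bp before the TSS of CG6276. It had 2.14 in replicate 1 and 3.30 in replicate 3 (2.72 ± 0.820).

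The loci of the troponin genes up and wupA had no thresholded peak. The gene up (FBgn0004169, X 13593474 to 13602578, minus strand) encodes troponin T, the subunit that ties the complex to tropomyosin. Its strongest promoter region, 13 bp before the start of RS, had 0.896 in replicate 1 and 1.48 in replicate 3 (1.19 ± 0.410). The region at its first 2 starts, 53 and 125 bp before them, had 0.889 in replicate 1 and 0.558 in replicate 3 (0.723 ± 0.234). The gene wupA (FBgn0283471, X 18105568 to 18116922, minus strand) encodes troponin I, the inhibitory subunit. Its region 21 bp before the main start had 0.589 in replicate 1 and 0.677 in replicate 3 (0.633 ± 0.0621), and the one at RE and RF, at 0.529 in the pooled list, was found in neither replicate.

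Both troponin loci did hold a stronger pooled region in the flank, at another gene's start. In the wupA 3′ flank a summit 14 bp inside Mvb12 had a pooled signal of 2.08 and rank 6851, and in the up 5′ flank a summit 20 bp before CG11178 had 2.03 and rank 7097. They fell just below the weakest thresholded peak of the genome, at 2.09. The weakest thresholded peak of the 10 loci, in Zasp52, had 2.27. The DRE letters TATCGATA were found within 100 bp of the CG11178 summit, and at none of the 36 member TSS windows.

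The myosin genes had weak regions at their starts. Mhc (FBgn0264695, 2L 16766566 to 16788766, plus strand) encodes the muscle myosin heavy chain in all of its isoforms. It had 1 pooled region, of 0.534, at its first 2 starts and another, of 0.720, at RT. The RT region had 0.654 in replicate 1 and 0.737 in replicate 3 (0.696 ± 0.0585). The start of RQ, RS, RU and RV, printed above with 2 MEF2 consensus matches at offsets -191 and -33, had no pooled summit within 250 bp. The nearest was 349 bp before it, at 0.686 in replicate 1 and 0.590 in replicate 3 (0.638 ± 0.0677). MEF2 is the transcription factor through which many muscle genes are switched on. The Mhc start with 14 transcripts had no MEF2 match, and the consensus was at 5 of the 36 member starts, against 13.2% of all. The thresholded peak of the Mhc locus (16790793 to 16791196) lay past the 3′ end of the gene, 274 bp before the start of Cyt-b5-r, with 2.74 in replicate 1 and 2.49 in replicate 3 (2.62 ± 0.177).

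Mlc1 (FBgn0002772, 3R 27657078 to 27660177, minus strand) encodes the alkali or essential light chain. The pooled region 48 bp before its only start had 1.03 in replicate 1 and 0.678 in replicate 3 (0.854 ± 0.248). Mlc2 (FBgn0002773, 3R 30171438 to 30174551, minus strand) encodes the regulatory light chain, and had no pooled summit within 250 bp of its only start. The nearest summit was 447 bp inside the gene, at 0.622 in the pooled list, and was found in neither replicate. Neither light chain locus held a thresholded peak, and their pooled regions ran from 0.591 to 1.27.

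The giant elastic proteins are encoded by sls and bt. The gene sls (FBgn0086906, 3L 2039681 to 2115611, minus strand) makes the titin-like Sallimus proteins, which link the Z-disc to the thick filament, and all 13 annotated transcripts share 1 start. Its single thresholded peak (2115779 to 2116009) was the second strongest of the 10 loci. It had 7.09 in replicate 1 and 9.32 in replicate 3 (8.21 ± 1.58), the 98.6th and 98.7th percentile of those lists. The summit was 274 bp before the start, just outside the promoter window, and the next other TSS, of a non-coding RNA, was 2613 bp away. With a window of 500 bp sls joined Tm1 and Zasp52, which gave 3 of 10 members against 37.1% of all genes, and 3 of 10 against 40.9% with 1000 bp. In the sls stretch printed above, a GATAA match begins at offset -277, beside the summit, and 3 GAGAG matches lie between it and the start, 2 of which overlap.

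The bodies of the 2 giant genes were nearly free of regions. The 75.9 kb body of sls, of which 73.0% is coding sequence, held 1 pooled summit, in a coding exon 1432 bp after the start, at 0.607. The 52.1 kb body of bt (FBgn0005666, chromosome 4, 724400 to 776474, plus strand), which encodes projectin and is 51.7% coding, held 0. Of the 307 protein-coding genes of 50 kb or more, 23.5% held 0 or 1, and their median was 9. The locus of sls held 0.349 pooled summits per 10 kb and that of bt 0.644, below the median of 3.32 over all protein-coding loci and at its 16.3rd and 17.5th percentile. The Zasp52 body, of similar length and 16.6% coding, held 14. The region at the first bt start, 100 bp before it, had 1.04 in replicate 1 and 0.734 in replicate 3 (0.886 ± 0.214), and the nearest thresholded peak was 26750 bp away.

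Zasp52 (FBgn0265991, 2R 15762565 to 15817004, minus strand) encodes a PDZ and LIM domain protein that binds alpha-actinin at the Z-disc and is also found where muscles attach. Its 6 thresholded peaks were spread over the whole locus. The locus held 22 pooled summits, or 3.41 per 10 kb, at the 51.5th percentile of protein-coding loci. That density was below those of Mlc1, Mlc2, Tm2 and Mhc (3.42) and above those of up, wupA, sls and bt. The promoter peak (15816996 to 15817399), 194 bp before the outermost start, that of RC and RZ, had 3.28 in replicate 1 and 3.05 in replicate 3 (3.16 ± 0.165). The second start, used by 18 transcripts, had a weaker pooled region 137 bp before it, at 1.46 in replicate 1 and 0.819 in replicate 3. The third start, of RQ and RY, lies deep inside the gene and had its nearest region 3995 bp away.

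Upstream of Zasp52, a peak 1667 bp before the outermost start (15818469 to 15818872) had 1.81 in replicate 1 and 2.94 in replicate 3 (2.37 ± 0.793). Another, 4429 bp before it (15821231 to 15821634), was the strongest of the locus, at 3.92 and 5.65 (4.78 ± 1.22), and lay 319 bp before CG33465. These peaks and the promoter peak all fall within tun, a gene that overlaps the 5′ end of Zasp52 on the other strand, so their position does not assign them to Zasp52. Introns held peaks 5262 bp (15781122 to 15781525; 1.78 in replicate 1, 2.70 in replicate 3) and 8930 bp before the RQ start (15784790 to 15785193; 2.82 and 3.73). The last peak (15762274 to 15762677) had its summit 89 bp past the 3′ end of the gene, at 3.89 in replicate 1 and 3.47 in replicate 3 (3.68 ± 0.294), and the nearest start of another gene was 26980 bp away.

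**Figure D3:**
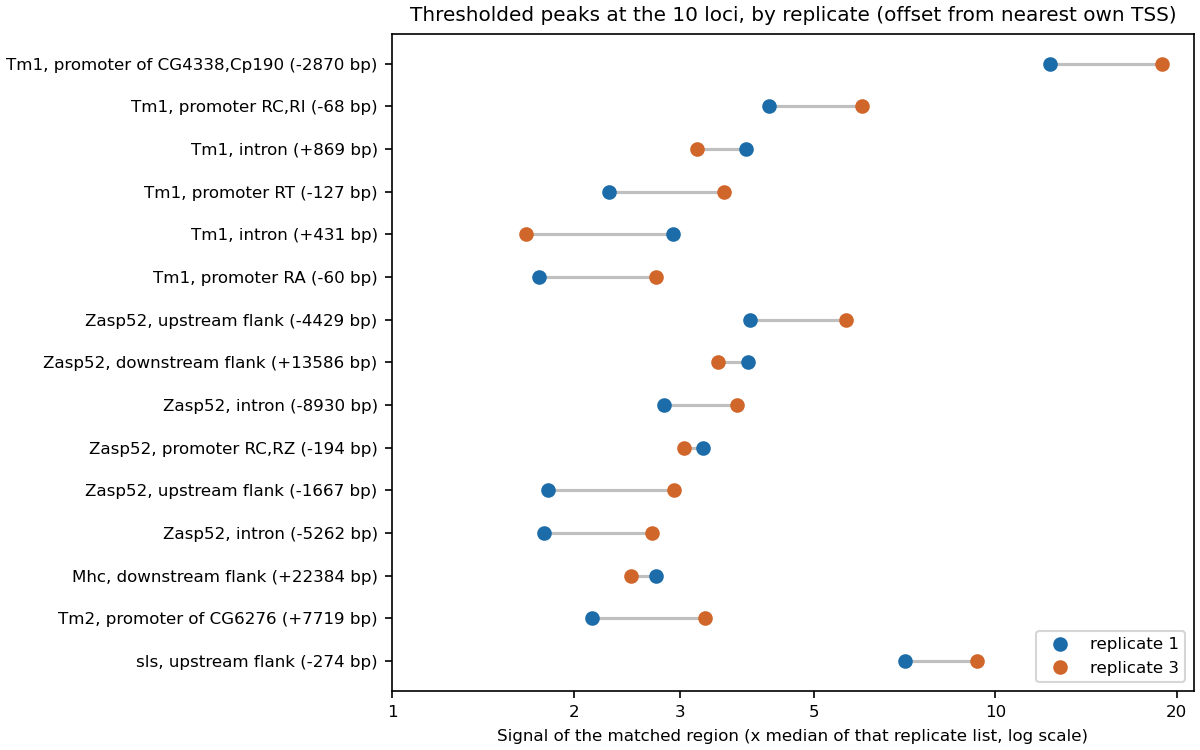
The 15 thresholded peaks in replicate 1 (blue) and replicate 3 (orange), each as a multiple of the median of that replicate's list on a log axis, ordered by gene and mean. Labels give the class of the peak and the distance of its summit from the nearest TSS of the named gene in bp, negative before it; the peak at the Cp190 and CG4338 promoters (12.3 and 18.9) and the sls peak (7.09 and 9.32) stand above the rest.

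By class, the 15 thresholded summits were 4 at a start of the member itself, 2 at a start of another gene alone, 4 in introns, 5 in the flanks and 0 in exons outside promoters. Of the 4 at own starts, 2 were also within 250 bp of another gene's start, which left Tm1-RC with RI and Zasp52-RC with RZ. None of the 3 thresholded peaks in the loci of the other 8 genes was at an own start. The 95 pooled summits divided into 17 at own starts, 12 at other genes' starts, 7 in coding exons, 4 in untranslated exons, 37 in introns and 18 in the flanks. Neither split has the shares over all regions beside it, so both describe these loci only and show nothing particular to them. With each summit counted once, the median signal was 1.17 over 28 pooled summits given to Tm1, 0.795 in Zasp52 and 0.741 in the other 8 loci. Summits of the Tm1 locus that were given to Tm2 are left out of the Tm1 value.

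In the replicates, the 15 thresholded peaks had a median of 2.92 in replicate 1 and 3.30 in replicate 3, close to the 2.96 and 3.48 of all thresholded peaks. Of the 15, 10 were higher in replicate 3 and 5 in replicate 1. The median ratio of replicate 3 to replicate 1 was 1.42, and 1.18 over all thresholded peaks, so the SDs of thresholded peaks include an offset between the lists. Weaker regions did not share it to that extent. Over the 48 pooled regions of the loci matched in both replicates the ratio was 0.933, and over all pooled regions 1.08. Of these 48, 23 were higher in replicate 3 and 25 in replicate 1. With n = 2 from 1 line, an SD measures only the spread between these samples.

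The sequence around the thresholded summits, 100 bp to each side, had a median of 56.2% A+T over the 15, against 61.2% over all thresholded peaks. The median was 52.0% in Tm1, 58.5% in Zasp52 and 63.2% at the 3 of the other genes. The E-box letters CANNTG were found at 10 of 15 (62.7% of all thresholded summits), GATAA at 9 (45.4%) and CGATA at 6 (39.9%). GAGAG was at 3 (25.0%), the TATA box letters at 3 (28.1%), GGTCACACT at 1 (4.85%), and the DRE letters and the MEF2 consensus at 0 (7.26% and 9.19%).

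At the starts themselves, 250 bp before to 50 bp from each of the 36 TSSs, MEF2 matches were found at 5, in Mhc, Tm1, bt and up (13.2% of all protein-coding starts). GAGAG was at 16 of 36 (33.1%), CANNTG at 24 (77.8%), CGATA at 10 (45.7%), the TATA box letters at 10 (42.2%) and GATAA at 10 (53.6%). GGTCACACT was at 1 (5.23%) and TATCGATA at 0 (7.98%). Both strands were searched, starts close together share bases, and CGATA is also counted inside TATCGATA and can overlap GATAA. A match is letters in a window and shows no binding by the factor named.

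Genes with as many starts were also set beside the members. Of the 4 members with 5 or more TSS positions (Mhc, Tm1, Tm2 and up), 1 had a thresholded summit at a start, against 65.8% of the 190 protein-coding genes with as many. Tm1 was that gene.

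Other genes of muscle and of the actin and myosin machinery were read by the same rules. Among 23 other sarcomere genes, 3 had a thresholded summit at a start, against 32.8% of all protein-coding genes, and 11 a pooled one, against 54.6%. In the gene body with 5 kb, 14 of the 23 had a thresholded summit, against 65.6%. The 3 with a thresholded summit at a start were Lasp (3.06 ± 1.10), an actin-binding LIM and SH3 protein, Actn (2.52 ± 0.710), the alpha-actinin of the Z-disc, and tmod (2.30 ± 0.302), which caps thin filaments. The Lasp summit is also at a start of CG43954 and the Actn summit at a start of usp.

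Of 10 genes listed under muscle attachment, 6 had a thresholded summit at a start. They included Vinc (vinculin, 5.82 ± 0.498), mys (the beta integrin, 5.33 ± 2.31, shared with fs(1)h), Ilk (integrin-linked kinase, 5.31 ± 1.64, shared with Trmt112), rhea (talin, 2.99 ± 1.28) and Pax (paxillin, 2.88 ± 0.0999, shared with Alp12). Of 16 genes of non-muscle actin and myosin, 12 had one. The strongest were Arp3 (7.12 ± 3.37, shared with msk), Rho1 (6.72 ± 0.863, shared with CG8414), sqh (6.17 ± 0.483), zip (3.44 ± 0.738) and flw (3.42 ± 1.35, shared with Psf3). The genes zip and sqh, the non-muscle heavy chain and regulatory light chain, had thresholded peaks at a start. Their muscle counterparts Mhc and Mlc2 had none. This pairing does not hold for the lists as wholes: some non-muscle genes had none, and the sarcomere genes Tm1, Zasp52, Lasp, Actn and tmod had one. Counts of thresholded summits at a start stand beside the 32.8% of all protein-coding genes, and none of these counts was tested.

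**Figure D4:**
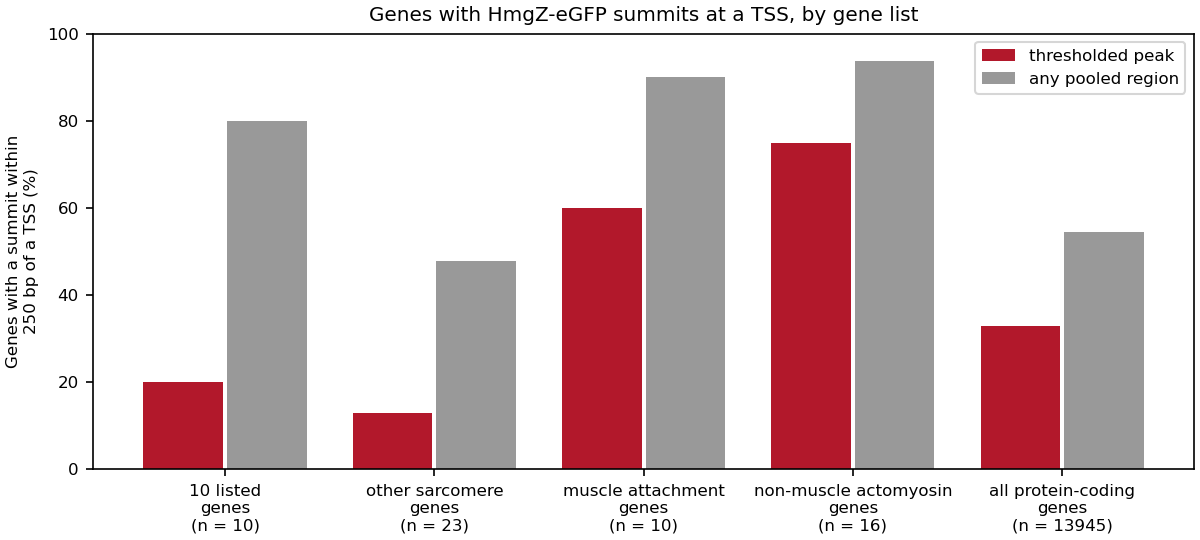
Share of genes with a summit within 250 bp of a TSS, in percent, for the 10 muscle structure genes, the 3 other gene lists and all protein-coding genes. Red bars are thresholded peaks (2 of 10, 3 of 23, 6 of 10, 12 of 16 and 32.8%) and grey bars any pooled region (8, 11, 9, 15 and 54.6%).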

How the data were processed

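Peak lists from 2 biological replicates of HmgZ-eGFP embryos were analysed. Chromatin had been sonicated to 200 to 800 bp, going by the labels. The descriptions deposited with the files state that the authors called regions on dm6 in replicate 1, in replicate 3 and in both together, with 1 control alignment, and made the thresholded set out of these lists. The sources used here name no aligner, caller or threshold. The signal of each region is the authors' value, used only to describe and rank regions within a list. The deposited −log10 q-value has the same highest value for many regions and was not used.

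Summits were assigned with the Ensembl 115 annotation without transposable elements and pseudogenes, and sequence came from the RefSeq copy of the assembly. A promoter was within 250 bp of a TSS. A replicate's value is that of the nearest summit within 100 bp, divided by the median of its list of 30000. A summit in 2 loci counts once in totals over the 10 genes and in classes, and for each locus it counts in both. In classes it goes to the member at whose start it lies, else whose body holds it, else whose start is nearer. The members and lists were chosen with earlier results of these data known. No p-value was computed: there is 1 group, and the members were proposed with their peaks in view. The genes named were all 10 members, genes whose starts lie at their thresholded summits or that overlap them, and up to 5 bound genes of each list by mean signal. Mvb12, CG11178, Cyt-b5-r and CG33465 fall outside that rule and were named after their values were seen. The counting was tested on simulated peaks. Alternatives were stricter sets, single replicates, other windows and flanks, the nearest TSS alone, another match distance and another scale. Software was Python 3.11.15 with numpy 2.4.6, pandas 2.3.3 and matplotlib 3.10.9.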

Additional observations from a re-analysis of the deposited data

How the results depend on the processing

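Of 92 values under other settings, 59 stayed within the tolerance and 33 moved. The tolerance was 1.5 times for a count and the median SD between replicates, 0.793, for a signal. Stricter peak sets moved most, but they are subsets, so their counts could not rise. In the strongest 50% of the thresholded peaks, 8 summits remained in the loci, 7 of them in Tm1 and Zasp52, members with a summit in the body and 5 kb were 3, TSS positions 2, other sarcomere genes 1 and non-muscle genes 5. In the strongest 25% the same counts were 4, 3, 3, 1, 0 and 3, with members bound at a start 1 (Tm1) and attachment genes 3. The share of all protein-coding genes with a summit at a start was 19.5% in the strongest 50% and 10.3% in the strongest 25%. In gene bodies alone, Tm1 and Zasp52, the 2 members with any, held 6 thresholded summits, the 10 members held 61 pooled ones, and with a flank of 2 kb 3 members had a summit. With each summit given to its nearest TSS alone, 3 TSS positions were called, and 26.2% of protein-coding genes. Under that rule the non-muscle genes with a summit at a start fell from 12 to 8 and the attachment genes from 6 to 5, both within the tolerance. The other sarcomere genes stayed at 3. Windows of 500 and 1000 bp gave 5 and 6 other sarcomere genes. Divided by the 90th percentile of each list, the median member signal was 0.929, against 3.16 on the median scale. That is a change of scale, although it counts among the 33. With either replicate's list alone, members bound at a start stayed at 2. No paired analysis was possible because there is 1 group. Unknown depth, 2 replicates, 1 shared control and mixed tissue limit these values: an absent region shows only that none was called.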
